A study of Homo sapiens with 6 samples.

Results

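Of the 61661 rows of the count table from RNA sequencing of K562 cells, 9 belonged to genes that mark megakaryocytes and platelets, the cells that stop bleeding. They were taken by symbol, with earlier results of these data known: ITGA2B, ITGB3, GP1BA, GP1BB, GP9, PF4, THBS1, VWF and TUBB1, each matched to its row through its Ensembl identifier. K562 is an established line from the pleural effusion of a patient with chronic myeloid leukemia in blast phase. It was sequenced as 3 groups of 2 libraries: shCTR (genotype given as WT, with a control shRNA), shMETTL3 (METTL3 knockdown) and shMETTL14 (METTL14 knockdown). By the study's methods, the shCTR and shMETTL3 lines were stable lines made with a lentiviral vector that carries GFP and puromycin resistance, the control virus holding a nonsense sequence, and were selected with puromycin. The methods do not describe how the shMETTL14 line was made. The study's supplement lists a single shRNA sequence for METTL3, so the knockdown and other differences between the lines cannot be told apart. All groups were grown in RPMI 1640 medium and collected in logarithmic growth, and no agent that drives cells toward megakaryocytes is named for any of them. METTL3 and METTL14 are partners in the complex that writes N6-methyladenosine on mRNA, and the comparisons ask how the RNA of these genes differs when either is reduced.

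Megakaryocytes are the large marrow cells that shed platelets. The integrin of ITGA2B and ITGB3 binds fibrinogen and joins platelets to each other, while the complex of GP1BA, GP1BB and GP9 holds them to von Willebrand factor, the product of VWF. PF4, THBS1 and VWF proteins are stored in platelet granules, and TUBB1 is the tubulin of the ring of microtubules that shapes a platelet. K562 cells can take on some erythroid and some megakaryocytic features in culture.

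Library totals ranged from 19292574 to 20115304 counts, with a median of 19645212. METTL3 reads were 1788 and 1728 in shCTR and 1031 and 938 in shMETTL3 libraries, a log2 fold change of -0.87 (SE 0.0783, edgeR quasi-likelihood test with Benjamini-Hochberg adjustment, adjusted p = 3.44e-07). METTL14 reads were 656 and 655 in shCTR and 375 and 404 in shMETTL14 libraries, a log2 fold change of -0.76 (SE 0.0886, edgeR adjusted p = 1.40e-05). The libraries of a group were not said to come from separate cultures, so p-values measure the spread between these libraries, which may be technical. With 2 libraries against 2, an exact two-sided permutation test of a single gene cannot give a p below 0.333, so all tests below come from the edgeR fit across genes.

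Only part of the platelet gene set was read in these cells. Of the 9 genes, 5 had enough reads to test (ITGA2B, ITGB3, GP1BA, THBS1 and TUBB1), and 4 were too low. GP1BB, GP9 and PF4 had 0 reads in every library, which with a limit of 3 counts allows a level of 0.150 to 0.157 CPM (each gene's counts divided by the library's total and expressed per fixed number of reads, scaled by edgeR's TMM factors), depending on the library and covering counting error only. VWF had 2 and 1 reads in shCTR, 2 and 4 in shMETTL3, and 2 and 1 in shMETTL14 libraries. Summed over a group, VWF had 6 reads in shMETTL3 and 3 in shCTR, a ratio of 1.96 with an exact 95% counting interval of 0.418 to 12.1, so no difference was detectable at this depth. The 0 of GP1BB may not read its expression: in GENCODE release 29, 1006 of the 1553 nt of its transcript lie within exons of SEPTIN5 on the same strand. The whole transcript also lies within exons of a read-through gene, which has no row in the count table. SEPTIN5 had between 10425 and 14879 reads per library. Its log2 fold change in shMETTL3 against shCTR cells was 0.33 (SE 0.0661, edgeR adjusted p = 0.00167).

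Levels were divided by the length of the longest transcript, which allows different genes to be compared. That length includes exonic bases shared with other genes, where reads may not have been counted. On this scale ITGA2B was the highest in every group among the genes with reads. In shCTR cells its level was 3.71 ± 0.378 CPM per kb (SD, n = 2), followed by THBS1 at 2.27, GP1BA at 1.47 and TUBB1 at 1.26, with ITGB3 at 0.0515 and VWF at 0.00868. The order of GP1BA and TUBB1 in shCTR cells was within the spread of GP1BA between its 2 libraries. In shMETTL3 cells the levels per kb were 6.40 for ITGA2B, 3.56 for THBS1, 3.48 for TUBB1 and 1.67 for GP1BA, with THBS1 and TUBB1 within the spread of THBS1. In shMETTL14 cells TUBB1 stood second at 2.23, above GP1BA at 1.45 and THBS1 at 1.10. The plot of levels by library shows how tight the pairs of libraries were for most genes and how wide for GP1BA.

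**Figure D1:**
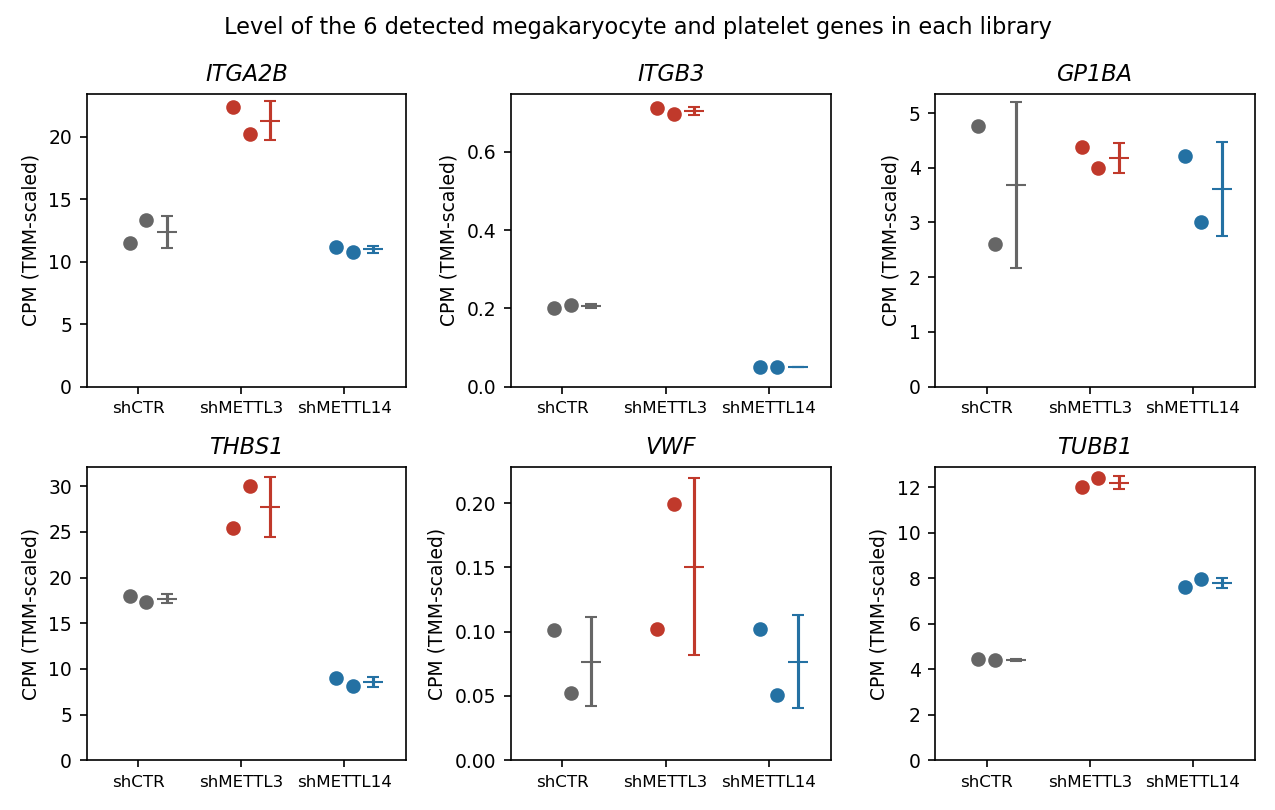
CPM (TMM-scaled) of the 6 genes with at least 1 read, by group; points are the 2 libraries, and the bar beside them is mean ± SD. ITGA2B, ITGB3, THBS1 and TUBB1 are highest in shMETTL3 libraries, THBS1 is lowest in shMETTL14 libraries, and GP1BA overlaps between all groups.

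To show the sequences in front of the genes that changed, the bases before the RefSeq start are given for the 3 called genes with a RefSeq promoter (GRCh38.p14), 5′ to 3′ on the gene's strand. Capitals mark matches to the GATA word, read on either strand, which is the run GATA with an adenine or thymine before it and an adenine or guanine after it. GATA factors drive both erythroid and megakaryocytic genes. ITGA2B is shown from chr17:44389650-44389899 on the minus strand, THBS1 from chr15:39580829-39581078 on the plus strand, and TUBB1 from chr20:59019179-59019253 on the plus strand, where only the bases before its GENCODE exon are shown.
ITGA2B: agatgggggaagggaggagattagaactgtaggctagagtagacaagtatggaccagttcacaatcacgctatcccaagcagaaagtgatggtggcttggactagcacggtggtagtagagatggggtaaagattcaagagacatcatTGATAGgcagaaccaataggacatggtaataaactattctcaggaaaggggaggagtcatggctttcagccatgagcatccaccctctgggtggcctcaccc
THBS1: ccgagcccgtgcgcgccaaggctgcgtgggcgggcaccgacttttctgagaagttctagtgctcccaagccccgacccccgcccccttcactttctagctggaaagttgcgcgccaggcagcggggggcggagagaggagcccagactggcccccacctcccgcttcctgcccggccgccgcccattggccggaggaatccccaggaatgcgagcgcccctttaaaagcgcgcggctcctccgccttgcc
TUBB1: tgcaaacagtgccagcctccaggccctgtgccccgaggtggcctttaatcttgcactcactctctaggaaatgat
The ITGA2B window held 1 match, TGATAG, at bases -102 to -97 before its RefSeq start, which itself lies 144 bases before the GENCODE start. The THBS1 and TUBB1 windows of 250 bases held none. Among 35116 RefSeq promoters of this length, 22.3% held at least 1 GATA word, and the ETS word GGAAGT, in 19.5% of them, was in none of the 3 windows. A match is a description of letters and not a site of binding, and its absence says nothing of any factor. GP9, a gene at 0 reads, had GGAAGT on the opposite strand at bases -45 to -40, and GP1BB had a GATA word within its GENCODE exon. No promoter entry was found for ITGB3, GP1BA, PF4 and VWF.

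In shMETTL3 cells, 3 of the 4 genes with at least 50 reads in every library were higher than in shCTR cells and none was lower. TUBB1 rose most among the genes read at more than a few counts, 2.75-fold, and ITGA2B and THBS1 rose by less. Over all 17686 genes tested in this comparison, 16.5% were called, 8.73% as higher and 7.73% as lower. ITGB3 was called higher too, but on few reads, and it could be tested only because of its reads in shMETTL3 libraries, so it is left out of that count.

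TUBB1 (ENSG00000101162; GRCh38 chromosome 20, 59019254 to 59026654, plus strand), the platelet tubulin, had 88 and 84 reads in shCTR, 235 and 248 in shMETTL3, and 150 and 156 in shMETTL14 libraries. Both shMETTL3 libraries were above both shMETTL14 libraries, and these above both shCTR libraries. Its level was 4.42 ± 0.0464 CPM in shCTR and 12.2 ± 0.280 CPM in shMETTL3 cells (SD, n = 2 each), a log2 fold change of 1.46 (SE 0.143, edgeR adjusted p = 1.01e-06). TUBB1 shares 1188 exonic bases with ATP5F1E, an ATP synthase gene on the opposite strand; the strand setting of the counting was not given in the sources used here. ATP5F1E had between 3433 and 4079 reads per library and moved the other way, with a log2 fold change of -0.19 (SE 0.0619, edgeR adjusted p = 0.0441).

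ITGA2B (ENSG00000005961; chromosome 17, 44372180 to 44389505, minus strand), the alpha subunit of the platelet fibrinogen receptor, had 227 and 254 reads in shCTR, 441 and 405 in shMETTL3, and 220 and 211 in shMETTL14 libraries. The shMETTL3 libraries stood apart from the other 4. Its level was 12.4 ± 1.26 CPM in shCTR and 21.3 ± 1.60 CPM in shMETTL3 cells (SD, n = 2 each), a log2 fold change of 0.78 (SE 0.112, edgeR adjusted p = 8.21e-05).

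ITGB3 (ENSG00000259207; chromosome 17, 47253846 to 47311816, plus strand), the beta subunit that pairs with ITGA2B, had 4 reads in each shCTR library, 14 in each shMETTL3 library and 1 in each shMETTL14 library. It passed the filter on low counts through the shMETTL3 libraries alone. Summed over a group, its reads were 28 in shMETTL3 and 8 in shCTR, a ratio of 3.43 with an exact 95% counting interval of 1.52 to 8.7. The fitted log2 fold change was 1.75 (SE 0.563, edgeR adjusted p = 0.0387). This call was lost without a filter on low counts and when any of the 6 libraries was left out; over 13 alternatives its adjusted p in edgeR ranged from 0.033 to 0.206, and DESeq2 gave no adjusted p. Per length, ITGB3 stayed far under its partner ITGA2B, at 0.177 against 6.40 CPM per kb in shMETTL3 cells. ITGB3 also shares 2266 exonic bases with AC068234.1 on the same strand, which had 0 reads in every library. How reads in shared bases were counted is not given, so the level of ITGB3 may be read too low.

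THBS1 (ENSG00000137801; chromosome 15, 39581079 to 39599466, plus strand), thrombospondin of the platelet alpha granules, had 355 and 332 reads in shCTR, 499 and 601 in shMETTL3, and 176 and 160 in shMETTL14 libraries. The groups did not overlap. Its level was 17.7 ± 0.441 CPM in shCTR and 27.7 ± 3.22 CPM in shMETTL3 cells (SD, n = 2 each), a log2 fold change of 0.65 (SE 0.105, edgeR adjusted p = 2.81e-04). THBS1 is also made by fibroblasts and endothelial cells. The 2 antisense neighbours of its exons, FSIP1 and THBS1-AS1, had at most 11 reads in a library.

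GP1BA (ENSG00000185245; chromosome 17, 4932297 to 4935030, plus strand), the ligand-binding subunit of the von Willebrand factor receptor, had 94 and 50 reads in shCTR, 86 and 80 in shMETTL3, and 83 and 59 in shMETTL14 libraries. The groups overlapped, and the 2 shCTR libraries were further apart than any pair of group means. The log2 fold change was 0.18 (SE 0.245, edgeR adjusted p = 0.673) in shMETTL3 cells and -0.03 (SE 0.250, edgeR adjusted p = 0.963) in shMETTL14 cells, so no direction can be given.

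In shMETTL14 cells, 1 of the 4 genes with at least 50 reads in every library was higher than in shCTR cells. Another 1 was lower, and ITGB3 is left out of this count too. Over all genes tested 6.69% were called, 3.43% as higher and 3.26% as lower. TUBB1 rose to 7.80 ± 0.229 CPM (SD, n = 2), a log2 fold change of 0.82 (SE 0.150, edgeR adjusted p = 0.00187). THBS1 fell to 8.56 ± 0.562 CPM (SD, n = 2), a log2 fold change of -1.04 (SE 0.120, edgeR adjusted p = 1.27e-05). ITGA2B, at 11.2 and 10.8 CPM in the 2 libraries, had groups that did not overlap but did not pass, with a log2 fold change of -0.17 (SE 0.121, edgeR adjusted p = 0.456). ITGB3 reads were 2 against 8 summed over a group, a ratio of 0.248 with an exact 95% counting interval of 0.0256 to 1.24, and its fitted log2 fold change was -1.89 (SE 0.963, edgeR adjusted p = 0.277).

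Both knockdown comparisons used the same shCTR libraries, so the knockdowns were also set against each other. In shMETTL3 against shMETTL14 cells, 3 of the 4 genes with at least 50 reads in every library were higher and none was lower, with ITGB3 again left out of the count; over all genes tested 12.1% were called, 6.65% as higher and 5.49% as lower. THBS1 differed by 1.69 on the log2 scale (SE 0.115, edgeR adjusted p = 5.42e-09), from a rise in shMETTL3 and a fall in shMETTL14 cells. ITGA2B differed by 0.96 (SE 0.114, edgeR adjusted p = 9.05e-06). TUBB1, higher in both knockdowns than in shCTR, was higher in shMETTL3 cells by 0.64 (SE 0.132, edgeR adjusted p = 0.00251). ITGB3 reads were 28 against 2, a ratio of 13.8 with an exact 95% counting interval of 3.49 to 120, and its fitted difference was 3.63 (SE 0.746, edgeR adjusted p = 0.00247). For GP1BA the difference was 0.21 (SE 0.245, edgeR adjusted p = 0.657).

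**Figure D2:**
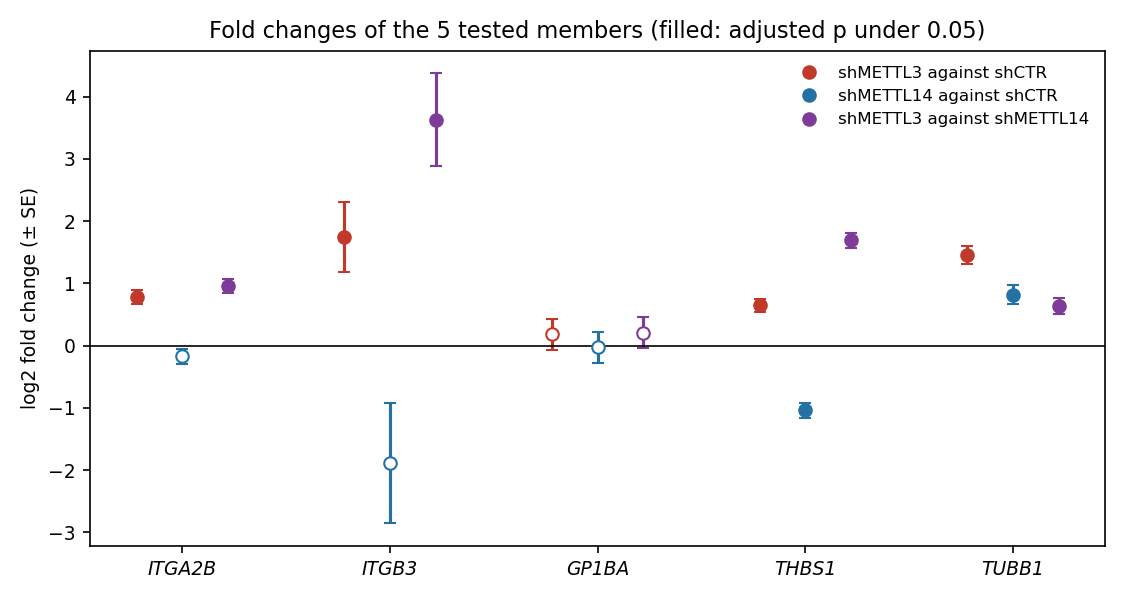
Log2 fold change ± SE from edgeR for the 5 tested genes in 3 comparisons; filled points had an adjusted p under 0.05. TUBB1 lies above 0 in all 3 comparisons, THBS1 at 0.65 in shMETTL3 and at -1.04 in shMETTL14 cells, and GP1BA has open points only.

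The 3 genes called on many reads kept their calls in all 14 alternative fits. The log2 fold change in shMETTL3 against shCTR cells lay between 0.64 and 0.89 for ITGA2B, between 0.53 and 0.76 for THBS1 and between 1.44 and 1.51 for TUBB1, which the plot of alternative settings shows beside the changing signs of GP1BA.

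**Figure D3:**
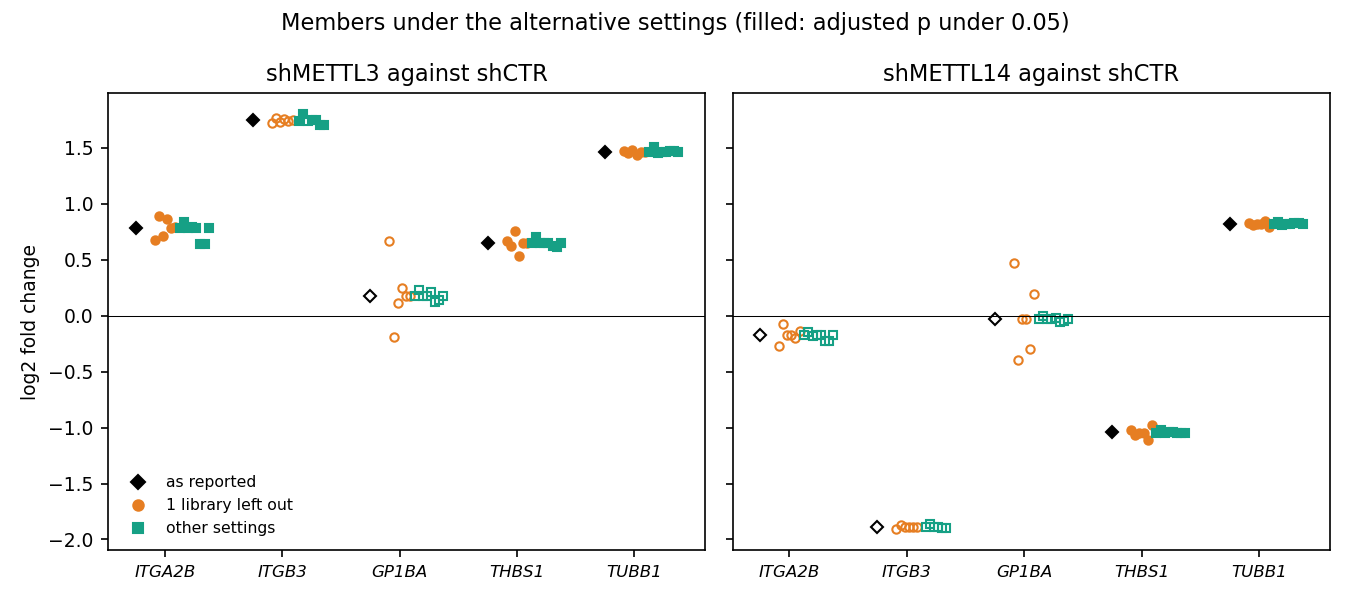
Log2 fold change of the 5 tested genes as reported (diamonds), with 1 library left out (circles) and under the other settings (squares); filled symbols had an adjusted p under 0.05. TUBB1 and THBS1 are filled throughout in both panels and ITGA2B in the shMETTL3 panel, while ITGB3 is open whenever a library is left out.

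Genes from 5 further lists of megakaryocyte and platelet biology moved in both directions. Their counts are to be read against the 16.5% of all tested genes called in shMETTL3 and the 6.69% called in shMETTL14 against shCTR cells. Of 10 tested surface receptors in a list of 19, 1 was higher and 1 lower in shMETTL3 against shCTR cells (20.0% called), with a median log2 fold change of 0.09 against 0.00 over all tested genes. CD226, an adhesion receptor, rose by 0.71 (SE 0.164, edgeR adjusted p = 0.00560), and CD84, a homophilic receptor of the SLAM family, fell by 1.31 (SE 0.290, edgeR adjusted p = 0.00391). In shMETTL14 cells, also with 1 higher and 1 lower (20.0% called), CD36, a thrombospondin receptor, rose by 1.07 (SE 0.112, edgeR adjusted p = 4.14e-06), and FCGR2A, an Fc receptor, had a log2 fold change of -0.28 (edgeR adjusted p = 0.0218). CD36 reads were 196 and 201 in shCTR, 248 and 229 in shMETTL3, and 406 and 438 in shMETTL14 libraries. THBS1 and this receptor were called in opposite directions in shMETTL14 cells. GP6, the collagen receptor, had between 43 and 64 reads per library, and GP5 and SELP at most 5.

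Among 21 tested genes of granule contents and granule formation, of 27 listed, 7 were higher and 1 lower in shMETTL3 cells (38.1% called against 16.5% of all genes, median 0.21), and 3 higher and 4 lower in shMETTL14 cells (33.3% against 6.69%, median 0.14). PDGFB, a platelet-derived growth factor chain, rose by 0.95 in shMETTL3 cells (SE 0.0971, edgeR adjusted p = 1.85e-06) and fell by 0.77 in shMETTL14 cells (SE 0.108, edgeR adjusted p = 1.28e-04), the same pair of directions as THBS1. SPARC, another alpha granule protein, rose by 0.92 in shMETTL3 cells (SE 0.109, edgeR adjusted p = 9.13e-06). In shMETTL14 cells RAB27B, a GTPase of granule release, fell by 0.88 (edgeR adjusted p = 1.21e-04) and SRGN, the granule proteoglycan, fell by 0.94 (edgeR adjusted p = 0.0233). The 3 higher there were RAB32, PROS1 and TIMP1, by 0.48, 0.35 and 0.28 (edgeR adjusted p = 0.0228, 0.00225 and 0.0115). PPBP, an abundant platelet chemokine, had at most 2 reads in a library, and PF4V1, the near copy of PF4, at most 1.

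Among 23 tested genes of platelet activation and thrombopoietin signalling, of 29 listed, 7 were higher and 3 lower in shMETTL3 cells (43.5% called against 16.5% of all genes, median 0.06), and 1 higher and 3 lower in shMETTL14 cells (17.4% against 6.69%, median -0.12). PTGS1, the cyclooxygenase that makes the thromboxane precursor, rose from 1.75 ± 0.0392 to 6.33 ± 0.629 CPM (SD, n = 2 each) in shMETTL3 cells, a log2 fold change of 1.85 (SE 0.208, edgeR adjusted p = 5.17e-06). F2RL3, a thrombin receptor, rose by 0.67 (edgeR adjusted p = 7.35e-05), and PLCG2, a phospholipase downstream of collagen receptors, rose by 0.65 (edgeR adjusted p = 3.18e-04). JAK2, a kinase of cytokine receptors, fell by 0.38 (edgeR adjusted p = 6.61e-04). RGS18, a regulator of G protein signalling in platelets, fell by 1.33 in shMETTL14 cells (SE 0.232, edgeR adjusted p = 0.00110). The 1 higher gene there was FERMT3, by 0.36 (edgeR adjusted p = 0.00187).

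The cytoskeleton list, of which 20 of 21 genes were tested, had 2 higher and 6 lower in shMETTL3 cells (40.0% called against 16.5%, median -0.04), and 1 higher and 2 lower in shMETTL14 cells (15.0% against 6.69%, median -0.07). MYLK, myosin light chain kinase, rose by 1.12 (SE 0.153, edgeR adjusted p = 4.81e-05), whereas the tropomyosins TPM1 and TPM4 fell by 0.42 and 0.40 (edgeR adjusted p = 0.00949 and 2.58e-04) and VCL, vinculin, fell by 0.38 (edgeR adjusted p = 2.95e-04).

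Of 16 tested megakaryocyte transcription factors among 18 listed, 4 were higher and 3 lower in shMETTL3 cells (43.8% called against 16.5%, median 0.08), and 2 higher and 4 lower in shMETTL14 cells (37.5% against 6.69%, median -0.17). ZFPM1, the partner of GATA1 also called FOG1, rose by 0.53 in shMETTL3 cells (SE 0.101, edgeR adjusted p = 0.00137). RUNX1, required for megakaryocyte maturation, fell by 0.33 in shMETTL3 cells (edgeR adjusted p = 0.00181) and by 0.37 in shMETTL14 cells (edgeR adjusted p = 0.00158). The 2 higher in shMETTL14 cells were HHEX, by 0.28 (edgeR adjusted p = 0.0123), and NFE2, by 0.27 (edgeR adjusted p = 0.0218). MEIS1 fell by 0.79 in shMETTL3 cells (SE 0.147, edgeR adjusted p = 9.85e-04). FLI1, an ETS factor of megakaryocytes, had 0 reads in every library, and ERG at most 1.

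**Figure D4:**
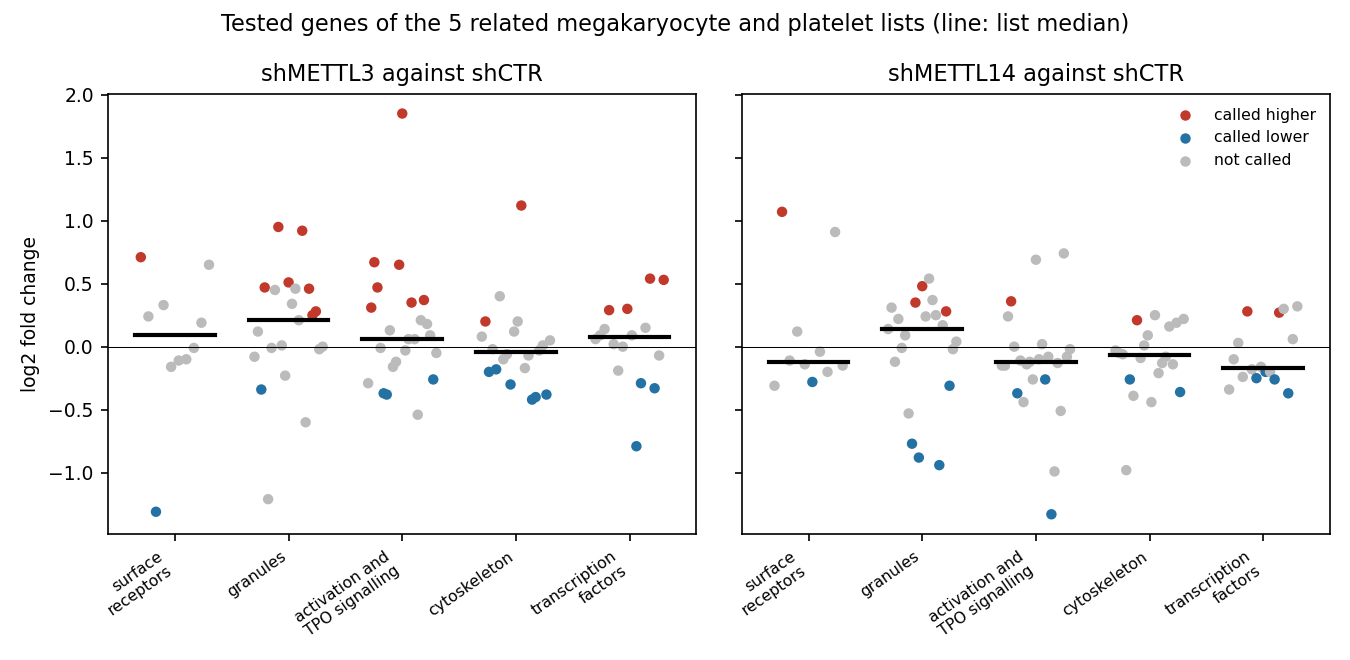
Log2 fold change of each tested gene of the 5 further lists in shMETTL3 and in shMETTL14 against shCTR cells; red was called higher, blue called lower, grey not called, and the line is the list's median. No list moves in one direction, and the medians lie between -0.17 and 0.21.

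Markers of other cell types were read beside these genes. The summed level of the 9 genes was 37.9 to 39.0 CPM in shCTR, 65.0 to 67.4 in shMETTL3 and 30.0 to 32.2 in shMETTL14 libraries. For 20 erythroid markers it was 2800 to 2920, 3030 to 3080 and 2980 to 2990 CPM. Of these, 8 were called higher and 1 lower in shMETTL3 against shCTR cells, 45.0% against 16.5% of all tested genes. ALAS2, the erythroid enzyme of heme synthesis, rose by 1.77 in shMETTL3 cells (SE 0.0917, edgeR adjusted p = 3.20e-10) and by 1.19 in shMETTL14 cells (SE 0.0945, edgeR adjusted p = 1.51e-07). The 14 endothelial markers summed to 166 to 202, 303 to 353 and 211 to 221 CPM, mostly from EGFL7, while CDH5, which defines endothelial cells, had 0 reads throughout and 6 of the 14 were at or under 3 reads in every library. The 11 fibroblast markers summed to 42.5 to 53.2, 86.0 to 112 and 97.8 to 106 CPM, mostly from FN1, with 4 at or under 3 reads. The 13 monocyte and granulocyte markers summed to 55.7 to 63.9, 31.9 to 32.3 and 73.2 to 79.0 CPM. LYZ made up the largest part of these sums, and 7 of the 13 were at or under 3 reads. The 11 lymphocyte markers summed to 132 to 149, 128 to 139 and 142 to 146 CPM. Nearly all of that came from PTPRC, and 3 of the 11 were at or under 3 reads in every library. The part of these markers in the results for the 9 genes was not tested. In RNA from whole cultures, fewer cells that express a gene and less RNA of it per cell cannot be told apart.

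The called genes were also described by the genes whose log2 CPM was most like theirs over the 6 libraries, among 15036 genes with a mean of at least 1 CPM. The highest Pearson r was 0.998 with SEMA6B for ITGA2B, 0.996 with DLG5 for ITGB3, 0.994 with DENND3 for THBS1 and 0.998 with ERFE for TUBB1. The next were FDXR at 0.997, ZDHHC8BP at 0.996, LINC00665 at 0.994 and NFATC4 at 0.998. With 3 groups of 2 libraries such values are common: between 134 and 198 genes had an r over 0.95 with each.

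The word GGACT, the letters most often named for N6-methyladenosine, occurred 2.06 times per kb in the longest THBS1 transcript, 1.50 in ITGA2B, 1.00 in ITGB3 and 0.572 in TUBB1, against a median of 0.908 over 16662 tested genes. By this count 91.1% of the tested genes had fewer than THBS1 and 29.4% fewer than TUBB1. The word is no measure of methylation, which was not analysed here.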

How the data were processed

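RNA from K562 cells (2 libraries each of shCTR, shMETTL3 and shMETTL14) was sequenced by the authors after oligo(dT) enrichment and random priming. The authors deposited whole-number read counts per gene, not normalized, for 61661 identifiers; the submitters' processing notes name HTSeq 0.6.1 and hg38, without saying how they were applied, and the aligner and strand setting are not given in the sources used here. Symbols came from a gene name table for 41209 of 60675 Ensembl rows and from GENCODE release 29 for 15846 more. Coordinates and lengths are those of GENCODE release 29 (GRCh38), and promoters those of RefSeq (GRCh38.p14; 5 of 9 genes matched).

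Tests used edgeR 4.0.16 (R 4.3.3). A filter (filterByExpr, minimum count 10) left 17686 genes, and the quasi-likelihood test with TMM scaling compared the groups in one fit of all 6 libraries, with Benjamini-Hochberg adjustment over all genes and a threshold of 0.05. The log2 fold changes are of CPM, computed here. Counting intervals are exact binomial. The code was tested on simulated data. The 9 genes and all lists were chosen with earlier results of these data known. All 9 genes are named, with genes sharing their exons, up to 3 called genes of largest rise and of largest fall per list and comparison (a selection is printed), and the 2 genes most like each called gene; marker genes, and genes named only by their range of reads, were picked after their values were seen. Some genes that meet this rule are left out of the text. The same replicate number is not said to mark a shared culture or day, so the main fit had no replicate block. Correlations of replicate differences between groups were 0.11, -0.02 and -0.04, which cannot settle whether libraries were paired. Alternatives were DESeq2 1.42.0, other scalings, no filter, fewer groups, a replicate block, a GC and length correction (mgcv 1.9.3) and each library left out. Depth was 19292574 to 20115304 counts, so 3 counts equal 0.150 to 0.157 CPM.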

Additional observations from a re-analysis of the deposited data

Results flagged for a closer look

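For 3 genes read at 50 or more counts in every library, shMETTL3 and shMETTL14 cells differed by the edgeR test. The difference on the log2 scale was 1.69 for THBS1, 0.96 for ITGA2B and 0.64 for TUBB1. Over all tested genes 12.1% were called in this comparison. Both shMETTL3 libraries were above both shMETTL14 libraries for each of the 3, and the share of all genes so separated is not given here. THBS1 was called in opposite directions against shCTR, and TUBB1 was called higher in both knockdowns, by unequal amounts. ITGB3 also passed, with a difference of 3.63, but it rests on 28 against 2 reads, it could be tested only through its reads in shMETTL3 libraries, and the call was lost without either shMETTL14 library (edgeR adjusted p = 0.0585 and 0.0578, of a range of 0.00151 to 0.0585). No group had the 4 libraries that a check for outlying samples needs.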

How the results depend on the processing

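The calls of ITGA2B, THBS1 and TUBB1 held in every alternative run. ITGB3 lost its call in shMETTL3 against shCTR cells in 7 of 13 alternatives (no filter, and each library left out), and against shMETTL14 cells without either shMETTL14 library (adjusted p = 0.0585 and 0.0578 in edgeR, of a range of 0.00151 to 0.0585); DESeq2 gave it no adjusted p. Of 5 members tested, ITGB3 included, 4, 2 and 4 were called in the 3 comparisons, and 3, 2 and 3 by DESeq2. Over all tested genes the shares called by edgeR were 16.5%, 6.69% and 12.1%. ITGB3, which could be tested only through its reads in shMETTL3 libraries, is among the 4 called each time. GP1BA, never called, ran from -0.19 (without shCTR replicate 2) to 0.67 in shMETTL3 against shCTR cells and from -0.40 to 0.47 (without shCTR replicate 1) in shMETTL14 against shCTR cells, where it was 0.19 without shMETTL14 replicate 2, and it turned to -0.01 between the knockdowns without shMETTL14 replicate 2.

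Counts over all genes moved more. In shMETTL3 against shCTR cells, 2912 genes were called by edgeR, 1881 by DESeq2 and 1102 to 3569 with 1 library left out, the lowest without shMETTL3 replicate 2. In shMETTL14 against shCTR cells the count of 1184 became 766 with no filter, 763 by DESeq2, 2194 with the replicate block and the GC and length correction, and 341 to 1913 with 1 library left out. Between the knockdowns 2148 became 1327, 3650 with block and correction, and 942 to 2953. The replicate block alone gave 3264, 1459 and 2478 genes and changed no call of the 9 genes. Library size alone gave 2158 higher and 858 lower genes in shMETTL3 against shCTR cells (1544 and 1368 with TMM), 743 and 443 in shMETTL14 cells (607 and 577), and 1399 and 754 between the knockdowns (1177 and 971). The cause of these shifts was not tested. At this depth GP1BB, GP9, PF4 and VWF could not be tested, and 2 libraries per group limit every error.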

Other observations

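The totals of 3 libraries (shMETTL3 replicate 2 and both shMETTL14 libraries) lay within 811 counts of each other, among totals near 19645212. Their counts per gene differed: the 2 shMETTL14 libraries had a mean chi-square per gene of 2.55, against 5.30 for the shCTR and 3.04 for the shMETTL3 pair. That value was computed only within groups. Between groups, THBS1 had 601 reads in shMETTL3 replicate 2, against 176 and 160 in the shMETTL14 libraries. None of the 3 was counted as a repeat of another.

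LYZ, the lysozyme of monocytes and granulocytes, moved opposite to THBS1 and PDGFB. It fell by 1.43 in shMETTL3 cells (SE 0.0861, edgeR adjusted p = 1.39e-09) and rose by 0.54 in shMETTL14 cells (SE 0.0753, edgeR adjusted p = 1.19e-04), and the difference between the knockdowns was -1.97 (SE 0.0840, edgeR adjusted p = 6.07e-12). LYZ was the only called gene of the 6 tested markers of these cells in each comparison. That is 16.7% called, against 16.5% of all tested genes in shMETTL3 and 6.69% in shMETTL14 against shCTR cells, and 12.1% between the knockdowns. The 6 markers had a median log2 fold change of 0.11 against shCTR after METTL3 knockdown and of 0.07 after METTL14 knockdown. FN1, fibronectin, which platelets also carry, rose in both, by 1.04 and 1.13 (edgeR adjusted p = 2.43e-06 and 1.82e-06), and did not pass between the knockdowns (-0.09, SE 0.104, edgeR adjusted p = 0.643). HBE1, embryonic epsilon globin, rose by 0.96 and 0.41 (edgeR adjusted p = 1.64e-08 and 8.14e-04).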
